A study of Schizosaccharomyces pombe with 12 samples.

Results

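Hydrogen peroxide (H2O2) given alone was the condition in which fission yeast lacking the histone chaperone HIRA was compared here with wild type (WT). The comparison rests on 3 of the 12 microarrays of the series, those whose titles name severe stress alone: 1 of WT, 1 of a deletion of slm9 (slm9D) and 1 of a deletion of hip1 (hip1D). The other 9 arrays hold the same strains without stress, after 1 h at 40 °C, or after 1 h at 40 °C followed by 1 h of H2O2, and they serve for comparison. The WT strain (Schizosaccharomyces pombe) was h-, leu1-32 and ura4-D18, and the mutants carried the same alleles with slm9::ura4 or hip1::ura4, so that every mutant array also carries the ura4 marker that WT lacks. Cells in logarithmic growth at 32 °C in YES medium received 25 mM H2O2 for 1 h. All are heterothallic cells of the M mating type, and each deletion is represented by 1 strain. The design text can be read as 1 culture or several per strain, and p-values therefore measure only the spread between these arrays.

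HIRA deposits histones H3 and H4 on DNA outside of replication, and Slm9 and Hip1 are its WD-repeat subunits in fission yeast. The complex is known there for keeping silent genes silent, among them heterochromatic genes and Tf2 retrotransposons. Peroxide is sensed in fission yeast by the MAP kinase cascade that ends in Sty1 and the transcription factor Atf1, which together turn on a broad set of stress genes, and by the transcription factor Pap1, which turns on peroxide-detoxifying enzymes. The question the design puts is how a loss of HIRA alters transcript levels when this severe stress arrives without a priming stress.

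The probe sets of the deleted genes and the marker were looked at first. After H2O2 alone the log2 intensity of slm9 was 4.84 in slm9D, against 9.23 in WT and 9.71 in hip1D. That of hip1 was 8.30 in hip1D, against 9.47 in WT and 9.59 in slm9D; it was lowest in the strain labelled hip1D but far above background, and is a weak check of that label. ura4 stood at 11.76 in slm9D and 11.82 in hip1D, against 4.71 in WT. These 3 probe sets were set apart from all counts, which leaves 2914 probe sets. The S. pombe median of the WT array was 9.36 against 9.46 in slm9D and 9.48 in hip1D, the lowest of the series, and the level taken as background, the 95th percentile of probe sets for genes outside S. pombe, was 4.03, 3.78 and 3.8. Across probe sets, which are not independent replicates, slm9D and hip1D correlated at 0.999 and WT with either at 0.930 or 0.930, below the 0.945 to 0.962 of the other conditions. As the only WT array after H2O2 alone it could not be left out, and every value below rests on it. In bulk RNA, fewer cells that express a gene and less RNA per cell cannot be told apart.

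Most differences of at least 2-fold were increases in the mutants. Of 2914 probe sets, limma called 2192 (75.2%) at a Benjamini-Hochberg adjusted p under 0.05, of which 1107 were higher in the mutants (38%) and 1085 lower (37.2%). Counts of list members called higher or lower, given below, are to be read against these 2 shares. The balance shifted with size: 373 called probe sets (12.8%) had an increase of at least 2-fold and 76 (2.61%) a decrease of that size. Counts of list members at least 2-fold higher or lower are to be read against 12.8% and 2.61%. The mutants lay on opposite sides of WT in 0 of the called probe sets, and 2227 had an unadjusted p under 0.05. With quantile normalization repeated on S. pombe genes alone (below, the pombe-only scaling), 898 were higher and 1178 lower, 212 and 134 of them at least 2-fold, and with equal S. pombe medians 947 were higher and 1386 lower, 322 and 117 at least 2-fold. The spread is that between slm9D and hip1D, and the test takes the lone WT array to vary by as much. With the spread between the other conditions mixed into that between the mutants, 1571 were called. Of the genes named below fip1, gpd2, gut2, hhf1, hhf2, hht1, htb1, map3, mcs4, meu23, mfm1, ptc4, scm3, sod1 and zym1 were no longer called.

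**Figure D1:**
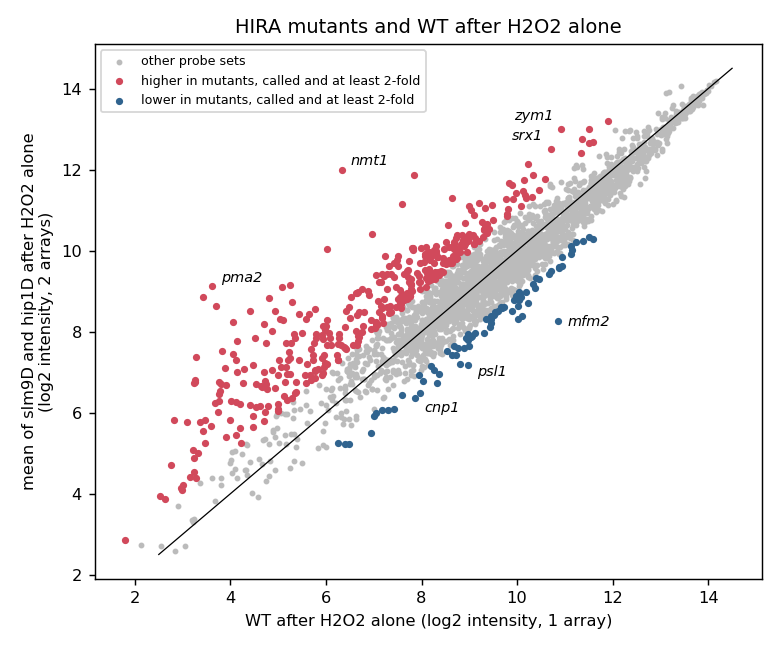
Each point is a probe set, with its log2 intensity on the WT array after H2O2 alone on the horizontal axis and the mean of the slm9D and hip1D arrays on the vertical axis. Of the 2914 probe sets, 373 called ones lay at least 2-fold above the line of equality and 76 at least 2-fold below it, with nmt1, at 6.33 in WT, furthest above it.

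The deletions gave almost the same profile. Between slm9D and hip1D 0 probe sets differed 2-fold or more and 1 differed 1.5-fold or more, the largest difference being 0.73 log2 units. The median absolute difference was 0.05 between the mutants and 0.38 between their mean and WT. With 1 array per strain this was not tested.

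The largest increases included nmt1, pma2, meu27 and spn6. nmt1, an enzyme of thiamine synthesis, read log2 6.33 in WT and 12.02 and 11.95 in slm9D and hip1D, a difference of 5.66 ± 0.09 (SE, adjusted p = 3.47e-16). pma2, a plasma membrane proton pump, read 3.62, 9.15 and 9.12 in the same order and meu27, a gene named for its rise in meiosis, 3.43, 8.86 and 8.84. Both were below background in WT, so their increases are given as at least 34.4-fold and at least 28.3-fold, with background in place of the WT signal. spn6, a septin of sporulation, read 3.70, 8.64 and 8.61, at least 24.2-fold higher. In all 40 of the 373 probe sets were below background in WT.

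fus1, the formin of cell fusion in mating, read 4.05 in WT against 8.22 in slm9D and 8.27 in hip1D, 4.19 ± 0.10 higher (adjusted p = 1.58e-14). rhp42, a damage recognition factor of nucleotide excision repair, read 4.41, 8.57 and 8.48, 4.11 ± 0.09 higher (adjusted p = 4.88e-15). These were not silent genes in WT before stress: unstressed WT read 6.30 for fus1 and 7.56 for rhp42. mug137 (3.28, 7.51 and 7.25) was below background in WT and at least 10.2-fold higher. The others of the 12 largest increases were mde7 at 4.03 ± 0.14, meu7 at 4.03 ± 0.07, mel1, an alpha-galactosidase, at 4.02 ± 0.09, meu25 at 4.02 ± 0.09 and rec10, part of the linear elements of meiotic chromosomes, at 3.91 ± 0.10, with both mutants above WT in each.

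The largest decreases were smaller than the largest increases. mfm2, a precursor of the M-factor pheromone, read 10.86 in WT and 8.29 and 8.24 in the mutants, a difference of -2.59 ± 0.13 (adjusted p = 8.66e-11). It was the only probe set at least 4-fold lower. psl1, a cyclin, read 8.97, 7.27 and 7.06 (-1.80 ± 0.12), and cnp1, the centromeric histone H3 variant, 7.87, 6.32 and 6.42 (-1.5 ± 0.10, adjusted p = 2.26e-09). In every one of these the WT array stood above both mutants.

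The other members of the 12 largest decreases covered several processes. The serine synthesis gene ser2 differed by -1.71 ± 0.08, mrpl44 of the mitochondrial ribosome by -1.71 ± 0.09 and ssb3, the small subunit of replication protein A, by -1.60 ± 0.11. shg1, of the Set1 histone methyltransferase complex, differed by -1.58 ± 0.11 and byr1, the MAP kinase kinase of pheromone signalling, by -1.53 ± 0.08. The fatty acid synthesis gene oar2 (-1.47 ± 0.10), the mating regulator map1 (-1.44 ± 0.12), the alkylation repair gene atl1 (-1.41 ± 0.11) and the exosome subunit rrp41 (-1.40 ± 0.08) completed the set. All adjusted p were at or below 2.11e-08.

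**Figure D2:**
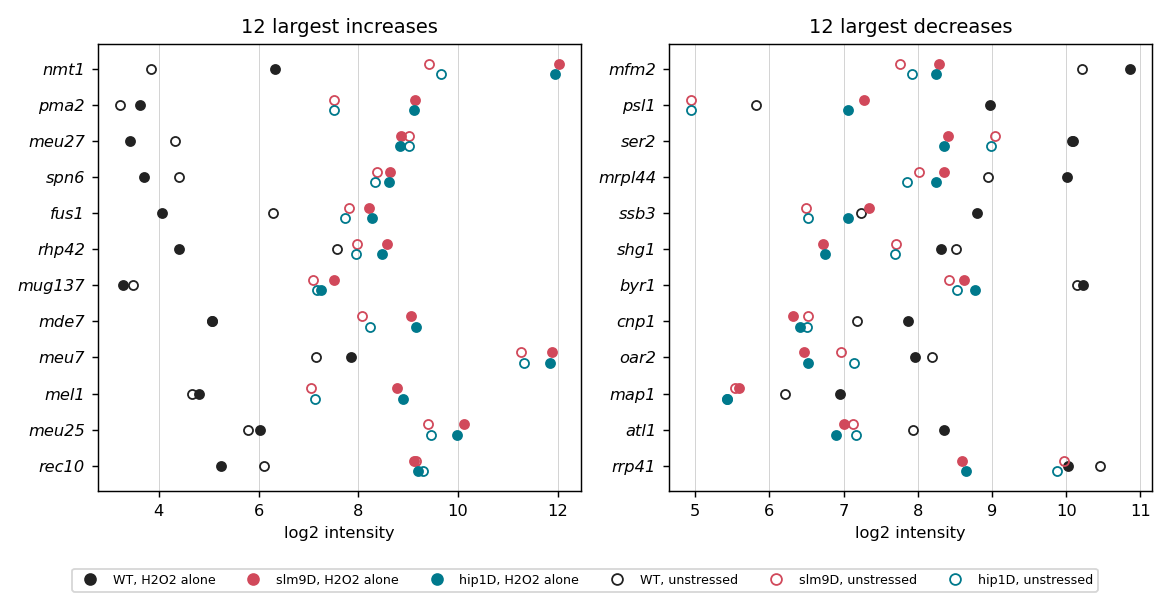
Log2 intensity of the 12 probe sets with the largest increases and the 12 with the largest decreases in the mutants after H2O2 alone, with 1 point per array, filled after H2O2 alone and open in unstressed cells. The filled mutant points lie close together and apart from the filled WT point for each gene, and for rhp42 and fus1 it is the WT point that moved most from unstressed cells, from 7.56 to 4.41 and from 6.30 to 4.05.

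The difference moved with annotated gene length. Gene lengths came from the RefSeq table of assembly ASM294v3. In 5 equal groups of genes from the shortest to the longest, the median difference between mutants and WT was -0.17, -0.08, -0.00, 0.12 and 0.37, and the share at least 2-fold higher went from 6% to 24.2% while the share at least 2-fold lower went from 4.97% to 1.03%. The WT response to H2O2 (H2O2 alone minus unstressed) had medians of 0.10, 0.01, -0.19, -0.24 and -0.51 over the same groups, that of slm9D went from 0.02 to -0.23 and that of hip1D from -0.01 to -0.18. Median gene length was 2432 bases in the 373 increased probe sets, 1452.5 in the 76 decreased ones and 1875.5 in all. Control probe sets for the ends of transcripts did not all go the same way after H2O2 alone. The 3' minus 5' log2 difference of ACT1 was 0.66 in WT, 0.65 in slm9D and 0.65 in hip1D. In the same order it was higher in both mutants for TFIID (0.48, 0.79 and 0.73), RIP1 (0.89, 0.97 and 1.09), CC338.15 (1.08, 1.12 and 1.27) and SRB4 (-0.18, 0.02 and -0.13). That of GPD3 was higher in WT, at 1.91, 0.35 and 0.42 (2.68, 0.59 and 0.55 unstressed). In unstressed cells RIP1 (0.90, 1.17 and 1.15), CC338.15 (0.78, 0.97 and 0.99) and SRB4 (-0.49, -0.25 and -0.29) were also higher in both mutants. TFIID read 0.83, 0.88 and 0.82 there. The part of length in each gene group was not tested; medians with the length trend removed from each array stand beside the groups where they differ most.

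**Figure D3:**
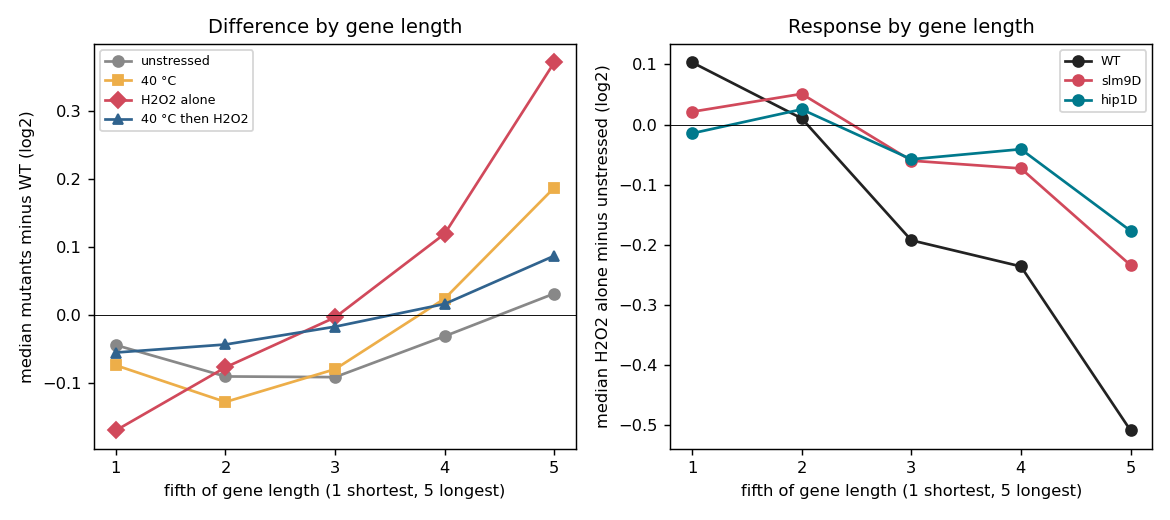
Left, median log2 difference between mutants and WT in 5 equal groups of genes by length, in 4 conditions; right, median log2 change from unstressed cells to H2O2 alone in each strain. After H2O2 alone the difference ran from -0.17 in the shortest to 0.37 in the longest genes, and WT, at 0.10 to -0.51, spanned more than either mutant.

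The listed core stress genes that were measured were all called higher in the mutants. Like all 37 lists, this one was chosen with earlier results of these data known, so its counts are a description. This list of known Sty1-Atf1 targets has 22 genes, of which 21 had a probe set, and all 21 were called higher, 11 of them (52.4%, against 12.8% of all probe sets) at least 2-fold. The median difference was 1.15, against -0.01 over all probe sets, 1.04 with the length trend removed and 0.95 with the pombe-only scaling. The members' median length was 1851 bases, close to the 1875.5 of all genes.

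The strains started from levels that already differed. The list's median response to H2O2 was 0.30 in WT, 0.80 in slm9D and 0.59 in hip1D, and the median difference in unstressed cells was 0.60. zym1, a metallothionein, read 10.92 in WT, against 13.03 in slm9D and 12.98 in hip1D after H2O2, 2.08 ± 0.07 higher (adjusted p = 8.04e-13), but in unstressed cells it was 3.08 higher and thus came closer to WT under H2O2. fbp1, the gluconeogenic fructose bisphosphatase, read 7.42, 9.33 and 9.36 (1.92 ± 0.12). hri1, a kinase of the translation factor eIF2 alpha, read 7.51, 9.61 and 9.62 (2.11 ± 0.08), and the hexose transporter ght3 4.72, 6.78 and 6.8 (2.07 ± 0.11). cta3, a cation pump, was below background in WT at 3.75, against 6.70 and 6.81, and was at least 6.63-fold higher. At 40 °C and at 40 °C followed by H2O2 the list median was -0.05 and 0.03.

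The cascade itself did not move as a unit. The Sty1 cascade, its phosphatases and transcription factors had 23 probe sets. Of these, 17 were called higher and 3 lower, 4 (17.4%, near the 12.8% of all) at least 2-fold higher. Their median was 0.59 (0.25 with the length trend removed; 0.31 with the pombe-only scaling), at a median length of 2432 bases. The kinase gene sty1 read 10.49 in WT and 9.96 and 9.85 in the mutants, a difference of -0.58 ± 0.07 (adjusted p = 2.78e-06), and it was 0.74 lower in unstressed mutants. mcs4, the response regulator upstream, was lower by -0.32 ± 0.09, and the phosphatase gene ptc4 by -0.27 ± 0.08.

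Other members were higher. pyp2, a phosphatase that acts on Sty1 and is itself a target of the pathway, read 9.08, 10.38 and 10.42 in WT, slm9D and hip1D (1.32 ± 0.11, adjusted p = 3.18e-08). srk1, a kinase bound and activated by Sty1, read 8.91, 9.90 and 9.91 (1.0 ± 0.08). mak2, a histidine kinase sensor of peroxide, read 8.86, 10.17 and 10.13 (1.29 ± 0.07). The transcription factor genes atf31 (2.17 ± 0.13) and atf21, the latter below background in WT and at least 3.48-fold higher, were also called higher.

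Among peroxide detoxification genes sulfiredoxin and catalase were higher in the mutants and some glutaredoxins lower. Of 26 probe sets on the list of peroxide and thiol redox genes, which shares ctt1, gpx1 and pmp20 with the stress targets, 17 (65.4%, against 38% of all probe sets) were called higher and 4 lower, with 4 (15.4%, near the 12.8% of all) at least 2-fold higher and a median of 0.28 (0.31 with the length trend removed). srx1, sulfiredoxin, which restores overoxidised peroxiredoxin, read 10.71 in WT, against 12.44 in slm9D and 12.57 in hip1D (1.80 ± 0.09, adjusted p = 7.02e-11) and differed by 0.44 in unstressed cells. The catalase gene ctt1 read 11.51, 12.62 and 12.68 (1.15 ± 0.05), with a difference of -0.10 in unstressed cells. For both, all 3 strains lay within 0.6 log2 units before stress, and the mutants stood above WT afterwards.

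The glutathione S-transferase genes differed in this respect. gst1 was higher in the mutants by 1.47 ± 0.09 after H2O2 and by 1.60 unstressed, and gst2 by 1.38 ± 0.07 and 1.45, so their differences were already present. The 4 members called lower were the glutaredoxin genes grx4 (-0.79 ± 0.08) and grx5 (-0.40 ± 0.07), hba1, a factor in nuclear export of Pap1 (-0.65 ± 0.08), and sod1, the copper-zinc superoxide dismutase (-0.17 ± 0.03, and 0.02, not called, without the length trend).

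Chaperone genes were moderately higher. Of 19 measured members of the heat shock list, 13 were called higher and 2 lower, and 1 (5.26%, below the 12.8% of all) passed 2-fold; the median was 0.31, or 0.21 without the length trend. ssa1, an Hsp70, read 11.50 in WT, against 12.99 in slm9D and 13 in hip1D (1.5 ± 0.03, adjusted p = 1.57e-14), and psi1, a DnaJ partner, differed by 0.91 ± 0.04. hsf1, the heat shock factor, read 9.94, 10.64 and 10.63 (0.70 ± 0.09). The mutants stood above WT in each of these, whereas mge1, a mitochondrial exchange factor, differed by -0.79 ± 0.07.

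Genes of glycerol and trehalose metabolism, which make and recycle protective solutes, included 11 called higher among 13 and 1 called lower (gpd2, -0.21 ± 0.06, not called after the pombe-only scaling). Of them 4 (30.8%, against 12.8% of all) passed 2-fold, and the median was 0.60. It was 0.36, with 2 past 2-fold, when the length trend was removed. The glycerol dehydrogenase gene gld1 read 8.91, 10.71 and 10.66 (1.78 ± 0.08), and the neutral trehalase gene ntp1 10.58, 11.77 and 11.79 (1.20 ± 0.05). ntp1 differed by 0.10 unstressed and by -0.37 at 40 °C. pgp1 was 1.24 ± 0.06 higher and gut2, mitochondrial glycerol-3-phosphate dehydrogenase, 1.01 ± 0.11.

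By count, meiotic and sporulation genes gave more increases of at least 2-fold than any other of the 37 lists, which differ in size. By share the P-cell list, of 3 probe sets, stood higher at 66.7%. Of 74 meiotic and sporulation probe sets, 56 were called higher and 9 lower, with a median of 1.24. Among the 74, 43 (58.1%, against 12.8% of all) were at least 2-fold higher and 2 at least 2-fold lower. The median depended on the scaling: it was 0.38, with 28 at least 2-fold higher, after the pombe-only scaling, and 1.22 with the length trend removed. Of the 74, 18 were below background in WT. The list's median was 0.71 in unstressed cells, and 0.60 at 40 °C and at 40 °C followed by H2O2.

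The known switch of meiosis did not rise with them. mei2, the RNA-binding protein that starts meiosis, read 7.58 in WT, against 6.47 in slm9D and 6.41 in hip1D (-1.14 ± 0.12, adjusted p = 3.36e-07). meu23 was -1.07 ± 0.13 lower and rec14, a recombination factor, -0.62 ± 0.08. Of 91 other genes named for a rise in meiosis (mug), 52 were called higher and 20 lower, 32 (35.2%, against 12.8% of all) and 2 at least 2-fold. The list's median was 0.53 (0.18, with 20 and 10 at least 2-fold, after the pombe-only scaling). mug28 was below background in WT (3.83, against 7.57 and 7.45) and at least 11.2-fold higher, mug108 read 6.96, 10.36 and 10.46 (3.45 ± 0.18) and mug97 differed by 3.27 ± 0.10. mug176 (-1.25 ± 0.11) and mug151 (-1.07 ± 0.08) were the 2 members at least 2-fold lower.

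Mating genes split. Of 37 probe sets, 21 were called higher and 10 lower, 13 (35.1%) and 5 (13.5%, against 2.61% of all) at least 2-fold, with a median of 0.43. The median was 0.23 without the length trend and 0.21 after the pombe-only scaling, with 9 and 7 past 2-fold under the latter. gpa1, the G protein alpha subunit of pheromone signalling, read 7.50 in WT, against 9.90 in slm9D and 9.63 in hip1D (2.27 ± 0.11). mam3, an agglutinin of M cells, read 6.76, 9.04 and 9.06 (2.29 ± 0.08). On the other side, ste4, an adaptor of the pheromone MAP kinase cascade, read 9.44, 8.10 and 8.15 (-1.32 ± 0.10), beside byr1, map1 and mfm2 above.

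The M-factor genes, given here by 1 probe set each, diverged, although all encode the same kind of pheromone precursor. The M-cell list has 9 probe sets for 7 genes, and a gene with several is given by the one with the lowest p. Values of further probe sets are not given, so each direction rests on 1 selected probe set. mfm3 read 4.86 in WT, against 7.19 in slm9D and 6.93 in hip1D (2.20 ± 0.12), mfm1 5.82, 4.92 and 5.33 (-0.70 ± 0.20, adjusted p = 0.00450), and mfm2 fell as given above. mam1, which exports M-factor, and sxa2, which degrades the P pheromone, were 1.49 ± 0.08 and 2.26 ± 0.09 higher. Of 9 probe sets for M-cell genes 6 were called higher and 2 lower, 5 and 1 at least 2-fold, with a median of 1.49; the median was 1.08 without the length trend and 0.85 after the pombe-only scaling, with 4 and 3 past 2-fold under the latter. The 3 measured P-cell genes, map2 (4.99, 6.16 and 6.04), map3 (7.05, 7.38 and 7.20) and map4 (7.55, 8.86 and 8.85), were above background in all strains and called higher by 1.12, 0.24 and 1.31; after the pombe-only scaling map2 (-0.04) and map3 (-0.21) were not called, and the list median of 1.12 became -0.04.

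**Figure D4:**
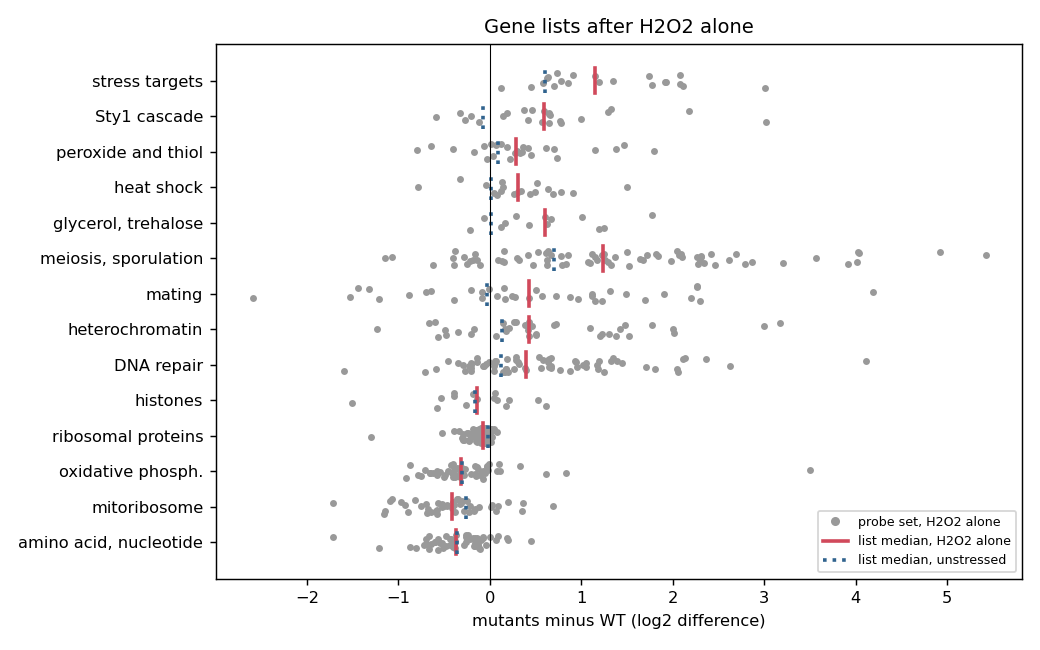
Log2 difference between mutants and WT after H2O2 alone for each measured member of 14 gene lists (grey), with the list median (solid red) and the median of the same list in unstressed cells (dotted blue). Stress targets lie to the right of 0 with a median of 1.15, meiosis and sporulation genes have a median of 1.24, and mitoribosome genes centre at -0.41.

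Heterochromatin and silencing genes were mostly higher, including factors that build it and one that opposes it. Of 38 probe sets 26 were called higher and 8 lower, 13 (34.2%) and 1 at least 2-fold. The median was 0.43, and 0.19 with 8 at least 2-fold higher when the length trend was removed; these genes are long (median 2691 bases), and after the pombe-only scaling 7 were at least 2-fold higher. dcr1, Dicer, read 4.13 in WT, against 7.42 in slm9D and 7.18 in hip1D (3.18 ± 0.11, adjusted p = 1.30e-12), and chp2, an HP1 protein, 5.44, 8.52 and 8.36 (3.0 ± 0.09).

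Both genes were lower in WT after H2O2 than in unstressed WT, at 5.43 and 8.05, while the mutants stayed within 0.6 of their unstressed levels. rik1, of the Clr4 methyltransferase complex, was 2.02 ± 0.08 higher, mit1, the remodeller of the SHREC complex, 2.01 ± 0.09 and epe1, an anti-silencing factor, 1.77 ± 0.11. cid12, of the RNA-directed RNA polymerase complex, read 7.29, 5.96 and 6.16 (-1.23 ± 0.12). The histone deacetylase gene clr6 was -0.60 ± 0.07 lower and stc1, a linker of RNA interference to chromatin, -0.66 ± 0.08.

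Histone genes changed little by comparison. Of 15 probe sets for 12 genes, 4 were called higher and 7 lower, 0 at least 2-fold higher and 1, cnp1, at least 2-fold lower, with a median of -0.14 that was -0.00 without the length trend. htb1, encoding H2B, was 0.62 ± 0.04 higher and hhf2, an H4 gene, 0.53 ± 0.05, while hhf1, another H4 gene, differed by -0.58 ± 0.08 and the H3 gene hht1 by -0.39 ± 0.07. At 40 °C the same list had a median of 0.61 and at 40 °C followed by H2O2 0.52. Near-identical histone genes may share signal between probe sets.

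Among 19 other histone chaperone genes 4 (21.1%, against 38% of all probe sets) were called higher and 9 (47.4%, against 37.2%) lower, with a median of -0.14. hip3, a further HIRA subunit, read 8.48 in WT, against 9.71 in slm9D and 9.77 in hip1D (1.26 ± 0.07, adjusted p = 5.19e-10) and was the only one at least 2-fold changed, though it fell short of 2-fold without the length trend and after the pombe-only scaling. hip4, another HIRA-associated gene, did not pass the test at 0.03 ± 0.08 (adjusted p = 0.751). nap1 was -0.86 ± 0.07 lower, and scm3, the chaperone that brings in Cnp1, 0.57 ± 0.11 higher beside the decrease of cnp1; after the pombe-only scaling scm3 was at -0.33 and not called.

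DNA repair and checkpoint genes included 43 called higher and 12 called lower among 71, 20 (28.2%) and 1 at least 2-fold. The median was 0.40; it was 0.31, with 13 at least 2-fold higher, when the length trend was removed and 0.14, with 9, after the pombe-only scaling; their median length was 2580 bases. rhp41, the close relative of rhp42 in damage recognition, read 7.24 in WT, against 9.85 in slm9D and 9.88 in hip1D (2.62 ± 0.12). rev3, the catalytic subunit of translesion polymerase zeta, read 7.05, 9.40 and 9.40 (2.36 ± 0.08).

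WT levels of the helicase gene fml1 and of the mismatch repair gene msh3 were lower after H2O2 than unstressed, at 6.0 against 8.21 and at 6.89 against 8.40. In slm9D and hip1D the change from unstressed was also negative, at -0.74 and -0.81 for fml1 and -0.62 and -0.63 for msh3. Unstressed mutants already stood above WT, by 0.70 for fml1 and 1.23 for msh3. The mutants after H2O2 read 8.14 and 8.14 for fml1 (2.14 ± 0.09) and 9.02 and 8.98 for msh3 (2.11 ± 0.07). Against these, subunits of replication protein A were lower, ssb3 as given above and ssb2 by -0.59 ± 0.07, and so was the end-processing gene pnk1 (-0.70 ± 0.10).

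Cell wall genes were long (median 3678 bases). With the length trend of all genes removed, their median of 0.42 became 0.09, and the 9 of 28 at least 2-fold higher (32.1%) became 6. The part of length within this list was not tested. In all 16 were called higher and 7 lower. chs1, a chitin synthase of spores, read 4.14 in WT, against 7.05 in slm9D and 6.96 in hip1D (2.87 ± 0.10), bgs2, the glucan synthase of the spore wall, 7.32, 9.60 and 9.66 (2.31 ± 0.08), and the alpha-glucan synthase homologue mok12 6.53, 8.84 and 8.87 (2.33 ± 0.08). These are genes of spore walls or their relatives. gas1, a glucan-remodelling enzyme of growing cells, was -0.77 ± 0.07 lower.

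Membrane pumps and efflux genes (17 probe sets, 10 called higher, 5 lower, median 0.65, and 0.27 without the length trend) included cta5 at 2.10 ± 0.06 and caf5, a drug efflux gene, at 1.80 ± 0.10, while the sodium-proton antiporter gene nhe1 differed by -0.94 ± 0.10. Autophagy and vacuolar genes were called higher in 23 of 28 cases and lower in 2, with a median of 0.48. Of the 28, 6 (21.4%, against 12.8% of all) were at least 2-fold higher, or 3 without the length trend and 2 after the pombe-only scaling. atg13, which activates the initiating kinase, read 8.07, 9.51 and 9.55 in WT, slm9D and hip1D (1.46 ± 0.09), whereas atg12, of the conjugation system, differed by -0.90 ± 0.08. Genes near chromosome ends (the 40 outermost protein-coding genes of each arm of chromosomes I and II, 35 probe sets) were called higher in 24 and lower in 9, 16 (45.7%) and 1 at least 2-fold, with a median of 0.93 after H2O2 and 0.59 unstressed. After the pombe-only scaling 10 of them were at least 2-fold higher and the median was 0.45.

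Biosynthetic and ribosomal genes lay on the lower side, by small amounts. Mitochondrial ribosomal protein genes were called lower in 37 of 47 cases and higher in 4, with 5 (10.6%, against 2.61% of all) at least 2-fold lower and a median of -0.41 (-0.33 without the length trend, at a median length of 1067 bases). mrpl38 read 11.50 in WT, against 10.36 in slm9D and 10.34 in hip1D (-1.15 ± 0.08) and rsm24 10.32, 9.11 and 9.24 (-1.15 ± 0.08). Both lay below WT before stress as well, by -0.92 and -0.68.

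Amino acid and nucleotide synthesis genes were called lower in 40 of 56 cases (71.4%, against 37.2% of all probe sets) and higher in 3 (against 38% of all), with a median of -0.37 and 2 at least 2-fold lower, ser2 and the purine gene ade5 (10.72, 9.54 and 9.48 in WT, slm9D and hip1D, -1.21 ± 0.07). Genes of oxidative phosphorylation were called lower in 31 of 50 (62%) and higher in 4, with a median of -0.32; the list also holds cuf2, a regulator of meiotic genes, which was below background in WT and at least 6.62-fold higher. RNA polymerase and Mediator genes were called lower in 30 of 58 (51.7%) and higher in 8. Of the 58, 7 (12.1%, against 2.61% of all) were at least 2-fold lower, or 11 after the pombe-only scaling. Among the 7 were the elongation factor gene spt4 (10.37, 9.13 and 9.02, -1.29 ± 0.08) and rpc11 of RNA polymerase III (-1.28 ± 0.09). med13 and srb8 of the Mediator kinase module were 1.88 ± 0.10 and 1.49 ± 0.07 higher.

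Cytosolic ribosomal protein genes, 120 probe sets near the top of the intensity range, were called lower in 64 cases and higher in 0, but the median was only -0.07 and became 0.11 with the length trend removed. rpl1603 alone passed 2-fold (11.58, 10.37 and 10.20, -1.29 ± 0.09). Ribosome biogenesis genes were called lower in 31 of 50 (62%, against 37.2% of all) and higher in 8, with a median of -0.29. dbp7, a helicase of ribosome assembly, was -1.33 ± 0.09 lower, while utp5 was 1.27 ± 0.07 higher. Near-identical ribosomal protein copies may share signal.

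Smaller nutrient lists gave mixed results, against 38% of all probe sets called higher and 37.2% called lower. Phosphate genes were called lower in 5 of 7 and higher in 2, with a median of -0.92, and the polyphosphate polymerase gene vtc4 read 11.15 in WT, against 9.95 in slm9D and 10.06 in hip1D (-1.14 ± 0.08). Thiamine genes were called higher in 6 of 10 and lower in 1, with a median of 0.70 (0.49 without the length trend); after nmt1 came thi5, a transcription factor (1.65 ± 0.09), and the acid phosphatase gene pho4 was -1.10 ± 0.08 lower. Hexose and glycolysis genes were called higher in 19 of 32 and lower in 6. Of the 32, 8 (25%, against 12.8% of all) were at least 2-fold higher, or 4 after the pombe-only scaling. Among them eno102, an enolase, stood at 2.67 ± 0.08 and the invertase gene inv1 at 2.19 ± 0.11.

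Nitrogen genes were called higher in 12 of 28 (42.9%) and lower in 11 (39.3%), near the 38% and 37.2% of all probe sets. The ammonium transporter gene amt3 stood at 2.74 ± 0.10. Iron genes gave 6 higher and 6 lower of 16 (37.5% each, near the 38% and 37.2% of all probe sets), and zinc and metal genes gave 5 higher and 1 lower of 15, zym1 being the only one past 2-fold. Translation factor genes were called lower in 16 of 24 (66.7%, against 37.2% of all) and higher in 3, the largest increase apart from hri1 being gcn2, a second kinase of eIF2 alpha (8.09, 10.00 and 10.17, 1.99 ± 0.08).

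Lists of general cell machinery had medians nearer to 0. Over all probe sets 38% were called higher and 37.2% lower. The shares were 39.2% and 43.1% for G1/S and replication genes and 32.1% and 30.4% for mitosis genes. They were 33.3% and 31.25% for secretory genes and 22.7% and 48% for splicing genes. G1/S and replication genes gave 20 higher and 22 lower of 51 (median -0.10, and -0.25 without the length trend or -0.28 after the pombe-only scaling), mitosis and cell separation genes 18 and 17 of 56 (-0.03, and -0.29 without the length trend, where 6 past 2-fold became 1), proteasome genes 12 and 5 of 34 (0.05), splicing genes 17 and 36 of 75 (-0.17), secretory genes 16 and 15 of 48 (-0.01) and nuclear pore genes 7 and 7 of 25 (0.01). The sign of the median turned with the scaling for mitosis, proteasome, secretory and nuclear pore genes, and for iron and zinc genes. Single members stood out. The transcription factor gene res2 of the G1/S regulator MBF was 1.79 ± 0.12 higher, the mitotic kinase gene cdr2 1.80 ± 0.09, and sec73, an exchange factor of Arf, 2.27 ± 0.07.

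The next comparison asked how far these differences were already there before stress. In unstressed cells 167 probe sets (5.73%) were called with an increase of at least 2-fold and 23 (0.789%) with a decrease of that size. Of the 373 increases after H2O2 155 were among them, 41.6% of the H2O2 list and 92.8% of the unstressed list. The median unstressed difference of the 373 was 0.77. From unstressed cells to H2O2 their median change was -0.60 in WT and 0.13 in the mutants; WT was at least 2-fold lower after H2O2 in 103 of them, and both mutants at least 2-fold higher in 33. The WT array after H2O2 that enters these changes is the one that chose the 373, so they are a description. Over all 2914 probe sets WT was at least 2-fold higher after H2O2 in 49 and lower in 296, slm9D in 64 and 151, and hip1D in 51 and 121. In the same way 185 (6.35%) and 26 (0.892%) were called at 40 °C, and 171 (5.87%) and 14 (0.48%) at 40 °C followed by H2O2.

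The change of the difference was then tested, as the difference after H2O2 minus that in unstressed cells, which is also the difference between the responses of mutants and WT. Of 2914 probe sets 1292 (44.3%) were called, 863 more positive after H2O2 (29.6%) and 429 more negative (14.7%), 149 (5.11%) and 4 (0.137%) of them at least 2-fold (5.25% together). rhp42 changed most among the genes named here, by 3.71 (adjusted p = 2.47e-11): WT went from 7.56 to 4.41 and the mutants from 7.97 and 7.95 to 8.57 and 8.48. sgo1, shugoshin, a protector of centromeric cohesion, was lower after H2O2 in all strains, from 8.29 to 4.70 in WT, from 8.05 to 6.89 in slm9D and from 7.97 to 7.13 in hip1D.

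The list counts that follow stand against 29.6% of all probe sets called more positive and 14.7% called more negative. By list, 15 of 21 stress targets had a more positive difference after H2O2 and 2 a more negative one. The counts were 15 and 0 of the 23 Sty1 cascade genes, 24 and 7 of 38 heterochromatin genes, 35 and 4 of 71 DNA repair genes and 10 and 0 of 13 glycerol and trehalose genes. Of 74 meiosis and sporulation genes it was 33 and 6, with 35 not called. nmt1 and meu7 were among those not called: their differences were 5.70 and 4.15 unstressed and 5.66 and 4.03 after H2O2 (adjusted p = 0.810 and 0.304 for the change), although nmt1 was below background in unstressed WT. On the cell wall list the counts were 15 and 3 of 28. With the pombe-only scaling the calls over all probe sets were 486 more positive and 530 more negative, with equal S. pombe medians 658 and 867, and with the length trend removed 670 and 653.

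A stricter comparison set the difference after H2O2 alone against its mean over the other 3 conditions. Its residual mixes the variation of the difference between those conditions with the spread between slm9D and hip1D. A call therefore need not exceed the variation between conditions taken by itself. It called 575 of 2914 probe sets (19.7%), 420 more positive (14.4%) and 155 more negative (5.32%), 124 (4.26%) and 9 (0.309%) of them at least 2-fold (4.56% together). In 107 of the 124 the WT array after H2O2 alone was the lowest of the WT arrays, and in 15 the mean of the mutants was at its highest. That WT array and the mutant arrays enter the comparison that chose the 124, so these counts are a description. Under the pombe-only scaling 173 were more positive and 125 more negative, under equal S. pombe medians 329 and 333, and with the length trend removed 304 and 221. The count was 256 without slm9D, 236 without hip1D after H2O2 alone and 1101 without the unstressed WT array.

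The 8 genes furthest to the positive side were mel1, rhp42, fus1, eno102, pcm2, sgo1, frp2 and mug8. mel1 differed between mutants and WT by 4.02 after H2O2 alone, 2.43 unstressed, -1.38 at 40 °C and -0.16 at 40 °C followed by H2O2, which is 3.73 ± 1.04 above the mean of the others (adjusted p = 0.0337). pcm2, a protein repair methyltransferase and the neighbour of mel1 in the gene table, differed by 3.44 after H2O2 alone, against 2.15, -0.20 and 0.31. eno102 followed the same course, with 2.67 against 1.09, -1.30 and 0.13. All 3 were thus also higher in the unstressed mutants.

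rhp42 (2.93 ± 0.41 above the mean of the others, adjusted p = 0.00190), fus1 (2.92 ± 0.30) and frp2, a ferric reductase gene (2.31 ± 0.14, adjusted p = 8.45e-05), had positive differences in all 4 conditions, the largest after H2O2 alone. For frp2 WT read 4.51 and the mutants 7.80 and 7.88. sgo1 differed little elsewhere, with 2.30 ± 0.11 after H2O2 alone against -0.27, -0.08 and 0.01 (2.42 ± 0.16 above their mean, adjusted p = 8.49e-05). mug8 was 2.28 ± 0.22 above the mean of the others.

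On the negative side the iron uptake pair fip1 and fio1, a permease and its ferroxidase that are neighbours in the gene table, changed sign. fip1 differed by -0.47 after H2O2 alone (7.73 in WT, 7.20 in slm9D and 7.31 in hip1D) but by 0.44 unstressed, 1.49 at 40 °C and 2.34 at 40 °C followed by H2O2 (-1.89 ± 0.52 from their mean, adjusted p = 0.0327). fio1 differed by -0.75 after H2O2 alone against 0.09, 0.93 and 1.1 (-1.46 ± 0.32). cnp1 (-1.17 ± 0.20 from the mean of the others, adjusted p = 0.00530), ssb3 (-1.37 ± 0.29), mei2 (-1.27 ± 0.24), psl1 (-1.25 ± 0.24) and snf5, of the SWI/SNF remodeller (-1.04 ± 0.23), were lower in the mutants after H2O2 alone and nearer to WT elsewhere. mug15, at -0.21 ± 0.13 after H2O2 alone (adjusted p = 0.136), was called here against differences of 0.41, 1.44 and 1.11 in the other conditions. Without slm9D or without hip1D after H2O2 alone, mel1, pcm2, eno102, fip1, snf5 and mug15 were no longer called, nor was fio1 without slm9D or ssb3 without hip1D. After the pombe-only scaling psl1 (-0.74) and mug15 (-1.02) were not called.

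**Figure D5:**
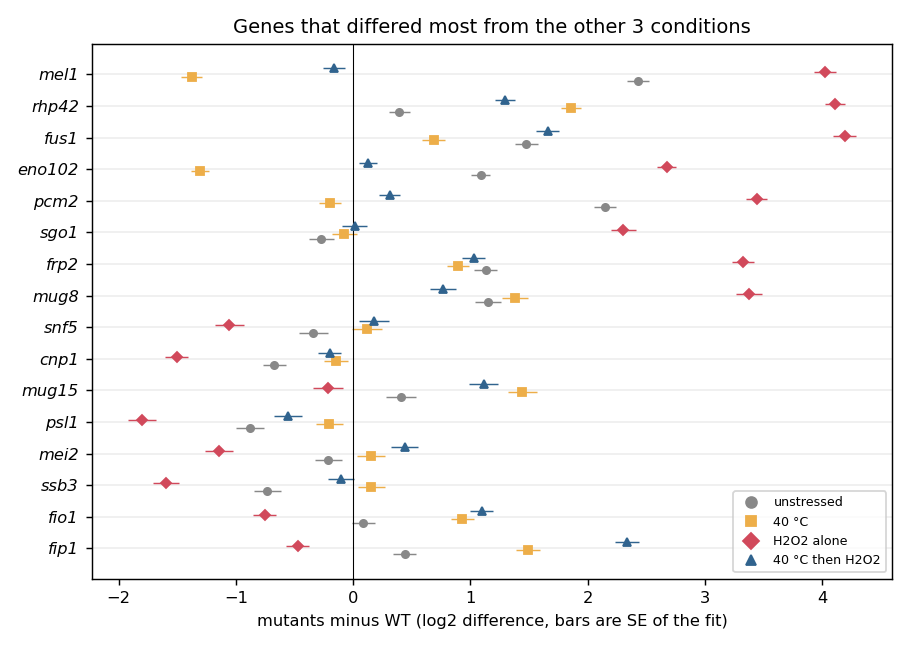
Log2 difference between mutants and WT in 4 conditions for the 16 genes whose difference after H2O2 alone stood furthest from the mean of the other 3, with the SE of the fit as bars. mel1 and eno102 lay below 0 at 40 °C, and fip1 lay at -0.47 after H2O2 alone and at 2.34 after 40 °C and H2O2.

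By list, 10 of 21 stress targets were called more positive than in the other conditions and 0 more negative, 4 of them at least 2-fold, against 14.4% and 5.32% of all probe sets. ctt1 and ntp1 were among the firmest, at 1.38 ± 0.17 and 1.33 ± 0.14 above the mean of the others (adjusted p = 0.00130 and 0.000687), and srx1 of the peroxide list stood at 1.45 ± 0.16 (adjusted p = 0.000765). The counts were 9 and 0 of 23 for the Sty1 cascade, 7 and 0 of 13 for glycerol and trehalose genes, 11 and 0 of 28 for autophagy, 24 and 2 of 71 for DNA repair, 13 and 2 of 38 for heterochromatin, and 17 and 1 of 74 for meiosis and sporulation. Mitochondrial ribosome genes gave 0 and 10 of 47. zym1, with differences of 3.08 unstressed, 0.05 at 40 °C and 0.17 after 40 °C and H2O2, was not called (0.98 ± 0.92, adjusted p = 0.489).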

How the data were processed

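The files hold RMA intensity values that the authors made in Expression Console 1.1 of Affymetrix (per the submitters' processing notes). The deposited intensities are on a linear scale, and log2 was taken here. RMA equalises arrays, so a change in total RNA cannot be seen, and low signals are compressed. Its settings: not given in the sources used here. Columns left unused number 0 of 12. Of 10928 probe sets, 2917 name a single S. pombe gene (2899 genes in all; 2914 matched by gene ID, 3 by symbol); 20 shared by several genes were left out, and 2601 for genes outside S. pombe gave the background.

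limma 3.58.1 in R 4.3.3 was fitted on all 2917, with the variance following intensity, and p-values were adjusted by Benjamini-Hochberg. Mutants against WT, and the change from unstressed cells, came from a fit of 8 means that takes slm9D and hip1D as 2 arrays of 1 mutant group (residual degrees of freedom, 4); the comparison with the other 3 conditions came from terms for condition, mutant and mutant after H2O2 alone (6 residual degrees of freedom). The fits were run on simulated data in which every array had independent noise of the same fitted size. Those data cannot test whether the lone WT array varies as the mutants do, or a separate spread between conditions. The number of arrays limits precision.

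Genes named are slm9, hip1 and ura4; the 12 largest called increases and 12 largest decreases with the same sign in both mutants; the 8 of each direction furthest from the other conditions; and, per list, up to 5 called with the largest difference and up to 3 that were not called or went against the list. For 14 genes with several probe sets each was tested separately. Where such a gene is named, its values are those of the probe set with the lowest p in that comparison. The members and all 37 lists were chosen with earlier results of these data known. Where WT was below background a fold is a lower bound. Alternatives covered dim probe sets, 3 scalings, the variance trend, a block by strain, samples left out, other fold thresholds and, chosen after seeing the data, removal of the length trend.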

Additional observations from a re-analysis of the deposited data

Results flagged for a closer look

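The difference between mutants and WT after H2O2 alone departed from the unstressed difference in 1292 probe sets and from the mean of the other 3 conditions in 575, by the tests of the difference itself in limma. Against the mean of the other 3 conditions, mel1 stood at 3.73, rhp42 at 2.93, fus1 at 2.92, eno102 at 2.70, pcm2 at 2.69, sgo1 at 2.42, frp2 at 2.31 and mug8 at 2.28 log2 units. On the negative side stood fip1 at -1.89, fio1 at -1.46, ssb3 at -1.37, mei2 at -1.27, psl1 at -1.25, mug15 at -1.20, cnp1 at -1.17 and snf5 at -1.04.

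Signals outside the tested probe sets also differed from WT. The probe set shared by the Tf2 retrotransposons read 8.46 in WT, against 11.50 in slm9D and 11.66 in hip1D after H2O2 alone, 3.12 higher in the mutants, against 1.35 unstressed, 0.94 at 40 °C and 1.69 after 40 °C and H2O2. WT read 10.96 unstressed. Among 5177 probe sets with no gene name, 302 were at least 2-fold higher in both mutants after H2O2 alone and 58 lower, against 158 and 26 unstressed. These values come without a test.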

How the results depend on the processing

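The calls after H2O2 alone stayed within 1.5 times of 2192 under the alternatives run, but the 2-fold counts did not. Quantile normalization on S. pombe probe sets gave 212 higher and 134 lower after H2O2 alone, 64 and 16 against unstressed cells, and 298 calls, 45 and 16 at least 2-fold, against the other conditions. Equal S. pombe medians, which shift the median of all genes to -0.12, gave 117 lower after H2O2 alone, 11 lower against unstressed cells and 19 against the others. Removing the length trend gave 95 and 11 against unstressed cells and 82 and 16 against the others. At 1.5-fold the counts were 647 and 335, 411 and 97, and 295 and 74, and at 4-fold 108 and 1, 9 and 0, and 11 and 0, in the same order of comparisons. Against the other conditions, 8 means gave 1557 calls (16 at least 2-fold lower) and leaving out the unstressed condition 954 (51 lower). Leaving out 1 array at a time gave 2007 to 2229 calls after H2O2 alone (373 to 383 and 74 to 78 at least 2-fold), 1078 to 1382 against unstressed cells and 236 to 1101 against the others (5 to 54 at least 2-fold lower); the 236 came without hip1D after H2O2 alone, and the 1101 and 54 without unstressed WT. With the strain as replicate block the calls numbered 2217, 1379 and 459. isp7 turned to -0.33 against unstressed cells, and the P-cell list median to -0.0388, under quantile normalization; the cause was not tested. The WT array after H2O2 alone has no replicate, so an error of that array and an effect of the mutations cannot be told apart.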

Other observations

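Other probe sets shared by several genes give values beyond the tested ones, here without a test. That of wtf16, wtf19 and wtf9, of a family of spore-killer genes, read 3.28 in WT, against 5.6 in slm9D and 5.24 in hip1D after H2O2 alone, WT being below background. That of wtf13 and wtf18 was 1.08 higher in the mutants after H2O2 alone and 0.83 unstressed, and that of wtf19, wtf21 and wtf23 0.57 and 0.61. The probe set of yip11 and yip12 differed by -0.53 after H2O2 alone and by 0.14 unstressed. Shared probe sets cannot say which copy changed.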
